A study of Mus musculus with 14 samples.

Results

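The comparison is of genotype among animals that all received TAK-418: 3 hippocampal RNA libraries from mutant mice carrying KMT2D+/bGeo were set against 5 from wild types, KMT2D+/+. These 8 samples are all those labelled with TAK-418, of 14 samples in the series, and were chosen from the genotype and treatment labels alone. All were C57BL6, were labelled 30 days old, and had been gavaged with TAK-418 at 1 mg/kg/day in methylcellulose for 2 weeks from the age of 2 weeks, so that drug, vehicle and age were shared by both groups. The other 6 samples, 3 mutants and 3 wild types given methylcellulose alone, give a second set of mice in which to read the same genes. They also entered the scaling and the spread that limma shares over all 4 groups, so each limma p-value rests on all 14 libraries. The series' design text speaks of 3 to 4 mice per group, whereas 5 libraries carry the labels of treated wild types. The labels give 1 number to each library and do not say whether animals were pooled or came from separate litters, so p-values measure the spread between these samples. The mutants are heterozygous and keep 1 intact copy of the gene. Whole hippocampus is a mixture of cells, in which fewer cells of a type and less RNA per cell cannot be told apart.

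KMT2D is a histone methyltransferase of the COMPASS family that places methyl groups on lysine 4 of histone H3, mainly the mono-methyl mark found at enhancers. Heterozygous loss of the human gene causes Kabuki syndrome, a disorder with intellectual disability, and mice with one disrupted copy have been studied for defects of hippocampal neurogenesis and memory. LSD1, encoded by Kdm1a, removes methyl groups from the same lysine within the CoREST repressor complex, and TAK-418 inhibits its enzymatic activity. The bGeo allele is a gene trap that joins a reporter to the front part of the trapped gene. The comparison asks which hippocampal transcripts still differ between genotypes when both receive the inhibitor.

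Levels are the Abundance values that the transcript assembler wrote for each assembled transcript, summed over the transcripts of an annotated gene and scaled between libraries; they behave like a read density per transcript length and are called scaled abundance. The steps between low values gave a relative sequencing depth of 59.7, 60.0 and 47.5 M (mega) in the mutants and of 167.6, 52.7, 40.8, 56.1 and 53.8 M in the wild types. Wild-type replicate 1 was the deepest library, and it also had the most assembled transcripts, 48428, against 33880 to 35896 in the remaining 4. Assembled transcripts with a single exon numbered 7580, 6346 and 6895 in the mutants and 6007, 2217, 5537, 3741 and 2315 in the wild types, with no overlap, while the vehicle libraries spanned 3862 to 7576. The share of transcripts with several exons was 82.6% ± 1.20 (SD, n = 3) against 89.7% ± 3.85 (SD, n = 5), which an exact two-sided permutation test put at p = 0.0357, the smallest value 3 against 5 libraries can give, and at 0.179 after adjustment over 5 library measures. In mutant replicate 2, 32.9% of the abundance lay in transcripts assigned to no gene, against 4.07% to 7.996% in the other 7. By Xist and Y-linked genes 1 of 3 mutants and 2 of 5 wild types were female. Of the hippocampal markers, 15 of 15 for fields CA1, CA2 and CA3 and 13 of 13 for mature dentate granule cells had values. Log2 values of all tested genes correlated at a median r of 0.964 across the 15 mutant and wild-type pairs, 0.964 within mutants and 0.963 within wild types.

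Kmt2d itself (chromosome 15, 98831669 to 98871204, minus strand, mm10) was at 14.6, 13.4 and 9.38 in the treated mutants and 13.8, 18.1, 12.6, 14.5 and 17.5 in the treated wild types. The lowest library was a mutant and the highest 2 were wild types, but the groups overlapped. The log2 difference, mutant minus wild type, was -0.29 (SE 0.15), with an exact two-sided permutation p of 0.25 and, for the pair of genes tested in this way, an adjusted p of 0.5. With 1 library left out the difference ran from -0.41 without mutant replicate 1 to -0.11 without mutant replicate 3. Abundance times length gave -0.32 (limma's unadjusted p 0.0391), and the vehicle mice gave -0.23 (SE 0.17). Transcripts of 55 exons were assembled in all 8 libraries, and every other transcript assigned to it was a single exon at the 3′ end of the gene, found in both genotypes. The authors' deposited table put the joint locus of Kmt2d and Prkag1 at 41.6 FPKM in wild types and 37.9 in mutants. Kdm1a (chromosome 4, 136550540 to 136602723), the target of the drug, was at 34.1, 34.3 and 34.3 in mutants and 35.2, 35.2, 35.9, 34.0 and 33.4 in wild types. Its log2 difference of -0.02 (SE 0.05) came with an exact permutation p of 0.5, and its groups overlapped.

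Few genes were called between the treated genotypes. Of 16568 genes tested with limma, 2 (0.0121%) passed an adjusted p of 0.05: Pcdhb13, higher in the mutants, and Tspan7, lower. At an unadjusted p under 0.05 stood 816 genes, 4.93% of those tested, of which 399 (2.41%) were higher and 417 (2.52%) lower. Without scaling between libraries 975 genes passed that unadjusted threshold and the share that was higher moved from 48.9% to 13.7%. All 3 mutants lay above all 5 wild types at 364 genes (2.2%) and below them at 393 (2.37%). In data simulated with normal noise around each gene's mean, the same test recovered 74% of genes changed by 1 log2 unit and 97% of those changed by 2. The simulation held no smaller changes, no libraries that stand apart and no changes of transcript length. It does not show how many of those would be found. It also held 200 changed genes, and with that many the adjustment lets larger unadjusted p-values pass than with the 2 calls here. The recovered shares therefore do not carry over to these data.

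Tspan7 encodes a four-pass membrane protein of the tetraspanin family that is found at synapses and takes part in the trafficking of AMPA receptors. Its scaled abundance was 544, 565 and 561 in the treated mutants and 739, 698, 709, 696 and 694 in the treated wild types, so the groups were far apart. The log2 difference was -0.34 (SE 0.04), with limma's adjusted p at 0.0303. Under vehicle the 3 mutants stood at 668, 711 and 717 and the 3 wild types at 687, 675 and 640, all above the treated mutants. The assembled structure differed in the same libraries. On chromosome X the annotated gene spans 10485158 to 10596605 on the plus strand, and its last intron runs from 10595355 to 10595629, 275 bases. In all 3 treated mutants the most abundant transcript had 7 exons and kept that intron as exon, for a length of 2009, 2030 and 2029 bases. Each of the other 11 libraries, vehicle mutants included, had a main transcript of 8 exons with the intron removed, and in the 5 treated wild types it was 1670, 1621, 1622, 1653 and 1619 bases long. Other transcripts with the intron removed were present in the treated mutants at abundances of 22.1, 17.2 and 30.1. When abundance was multiplied by transcript length, the log2 difference was 0.01, with limma's unadjusted p at 0.741. The authors' deposited table, which uses 1 set of loci for all samples, gave 603 FPKM in wild types and 599 in mutants. The difference between treatments was -0.41 on the log2 scale (limma's adjusted p 0.193). With 1 treated library left out, limma's adjusted p ran from 0.0525 to 0.2 for 7 of the 8 libraries, and the call held only without wild-type replicate 1. On the 8 treated libraries alone Tspan7 did not pass (adjusted p 0.0988 with limma), and that fit called Pcdhb13, Fam43b and Gm4841. It also did not pass with upper quartile scaling (limma's adjusted p 0.052), with transcripts of several exons only (0.0617) or without scaling (0.416).

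Pcdhb13, on chromosome 18 (37442500 to 37446209, plus strand), is one of the clustered beta protocadherins, adhesion proteins of which each neuron expresses a subset. It was assembled as a single exon, at 2.29, 1.71 and 1.53 in the 3 treated mutants and was listed at 0 in the 5 treated wild types and in all 6 vehicle libraries. No fold can be given against groups listed at 0. The fitted difference was 1.60 on the log2(value + 0.9) scale (SE 0.09, limma's adjusted p 2.1e-05), and its size depends on the added constant. Only the 3 treated mutants brought the gene past the filter of a value in at least 3 libraries. The groups listed at 0 have no spread, so its p-values reflect only whether a transcript was assembled and are not separate support. The authors' deposited table has a joint locus of Pcdhb13 and Pcdhb14, at 4.04 FPKM in wild types and 3.74 in mutants. With transcripts of a single exon left out, the gene had no value, and with any mutant library left out it had too few values to be tested. The difference between treatments had a limma adjusted p of 0.0019, with the same limit.

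The 12 higher and 12 lower protein-coding genes with the smallest unadjusted p, among those present in all 8 libraries and not overlapping between groups, are described next. Of 12615 eligible genes, 287 (2.28%) lay wholly above and 346 (2.74%) wholly below. None of the 24 but Tspan7 passed limma's adjusted p of 0.05, and for the other 23 the adjusted p ran from 0.076 to 0.819. The plot of the 24 genes by library shows the vehicle groups as well, which share no sample with this comparison.

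**Figure D1:**
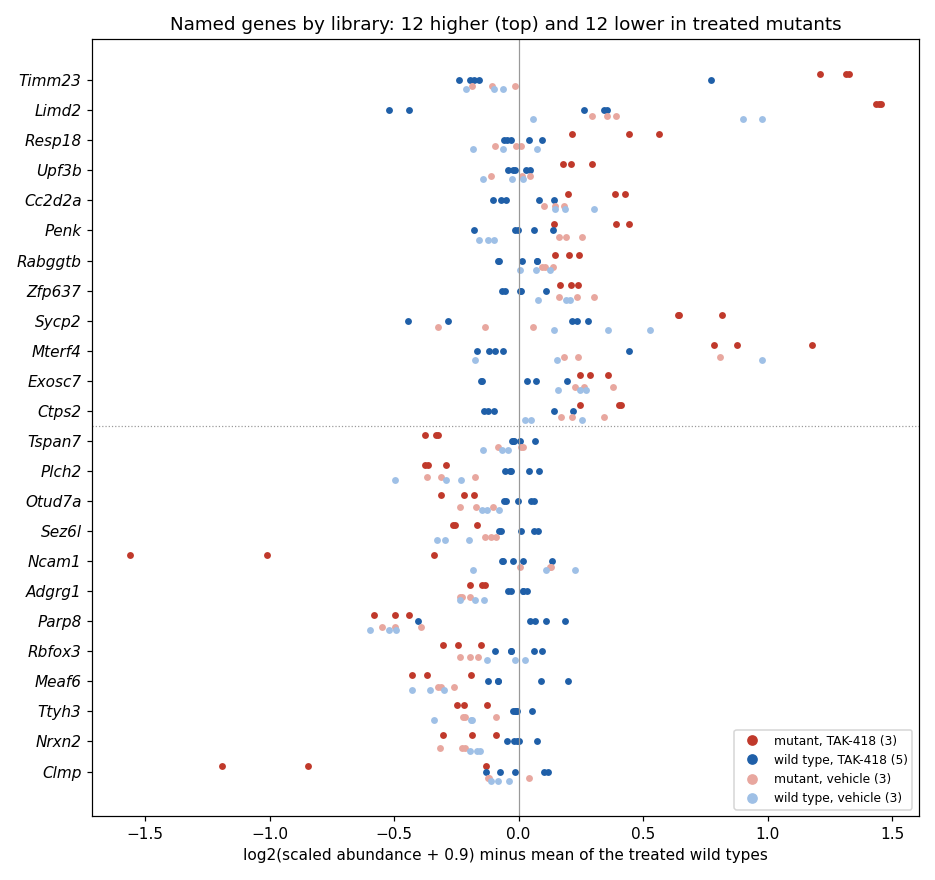
Each row is 1 gene and each point 1 library; the horizontal axis is log2(scaled abundance + 0.9) minus the mean of the 5 treated wild types. Treated mutants (dark red) lie to 1 side of treated wild types (dark blue) by the choice of genes, and vehicle libraries (pale) fall near the treated mutants for Plch2, Adgrg1, Meaf6 and Ttyh3 and near the treated wild types for Timm23, Tspan7 and Resp18.

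Among the 12 higher genes, Penk alone had an unadjusted limma p under 0.05 in the same direction under vehicle. Its direction was the same by every measure and in both sets of mice. That also held at other higher genes, Resp18, Upf3b and Rabggtb among them. Penk (chromosome 4, 4133531 to 4138819), which encodes proenkephalin, the precursor of opioid peptides, was at 21.5, 25.6 and 26.6 in the treated mutants. The treated wild types were at 19.3, 19.1, 20.3, 21.4 and 17.0, so the lowest mutant sat just above the highest wild type. The log2 difference was 0.33 (SE 0.08, limma's unadjusted p 0.00115 and adjusted p 0.759). Abundance times length gave 0.43, and the authors' deposited table gave 14.7 FPKM in wild types and 18.2 in mutants, with a p-value of 0.0008 and a q-value of 0.264. In the vehicle mice Penk was at 21.7, 23.3 and 22.2 in mutants and 18.0, 17.3 and 17.7 in wild types, again without overlap, and the log2 difference was 0.33 there too (SE 0.09, limma's unadjusted p 0.00236).

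Resp18, a protein of the regulated secretory pathway of endocrine cells and neurons (chromosome 1, 75272199 to 75278415), was at 64.2, 69.9 and 54.7 in the mutants. The wild types were at 50.2, 45.04, 48.4, 46.0 and 45.5, which leaves a gap between the groups. The log2 difference was 0.41 (SE 0.08, limma's adjusted p 0.303), while abundance times length gave 0.12. In the authors' deposited table the locus was at 54.9 FPKM in wild types and 65.2 in mutants, at a p-value of 0.00445 and a q-value of 0.808. All 6 vehicle libraries were lower than the treated mutants, between 41.2 and 49.5, and their genotypes differed by 0.03 (SE 0.09).

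Timm23 and Limd2 had the largest differences of the 24, and in both the assembled transcripts ended at different places in the 2 groups. Timm23 (chromosome 14, 32180162 to 32201898) encodes the channel subunit of the inner mitochondrial membrane translocase. Its scaled abundance was 60.7, 65.2 and 65.8 in the mutants and 44.5, 22.3, 21.6, 22.6 and 22.9 in the wild types, a log2 difference of 1.29 (SE 0.19, limma's adjusted p 0.076). The main transcript was 702, 701 and 688 bases long in the mutants, 1052 in wild-type replicate 1, and 3448, 3799, 3449 and 3449 in the other wild types, where it reached from 32177823 instead of 32180570. Abundance times length turned the sign, to -0.66, and the authors' deposited table gave 56.9 FPKM in wild types and 60.6 in mutants for the locus, which also holds Gm23946.

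Limd2, a small LIM-domain protein (chromosome 11, 106156256 to 106160860), was at 87.2, 86.4 and 87.7 in the mutants and 21.6, 40.1, 40.4, 37.9 and 22.9 in the wild types. The log2 difference was 1.45 (SE 0.24, limma's adjusted p 0.156). Mean transcript length was 1014, 1010 and 1020 bases in the mutants and at least 2816 in every treated wild type, and abundance times length gave -0.20. Among the vehicle libraries, the 2 wild types with the shortest transcripts, 981 and 1496 bases, had the highest values, 62.7 and 59.5. In the authors' deposited table the joint locus with Ccdc47, Gm25556 and Strada was at 122.3 FPKM in wild types and 121.9 in mutants. Mterf4, a regulator of mitochondrial ribosome assembly, showed the same coupling: 9.38, 10.1 and 12.6 in the mutants against 7.22, 4.69, 4.41, 4.60 and 4.82, with mean lengths of 1216 and 5802 bases, and a sign turned to -1.12 by length.

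**Figure D2:**
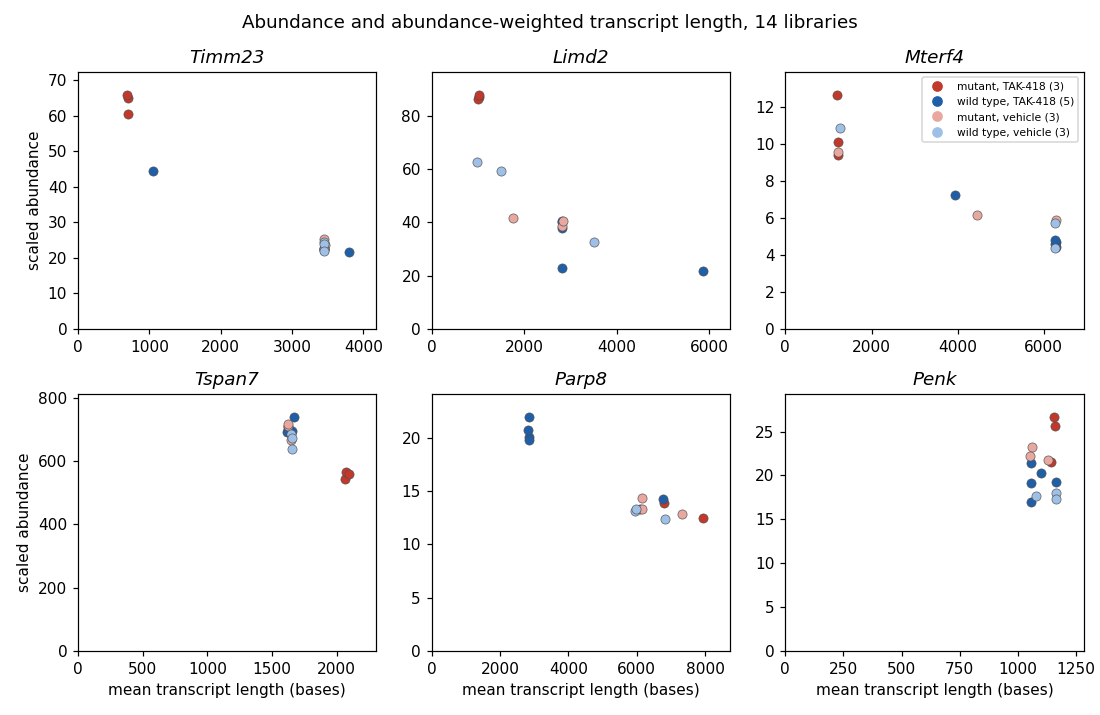
Panels plot the scaled abundance of 6 genes against the abundance-weighted mean length of their assembled transcripts in bases, 1 point per library of all 14. High values of Timm23, Limd2 and Mterf4 belong to short transcripts and low values of Tspan7 and Parp8 to long ones, whereas the Penk points span only 1052 to 1166 bases, with 2 treated mutants the highest of the 14.

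Other higher genes had smaller differences. Upf3b, a nonsense-mediated decay factor on the X chromosome, was at 23.3, 22.8 and 24.8 in mutants and between 19.5 and 20.8 in wild types, a log2 difference of 0.23 (SE 0.05). Exosc7, a subunit of the RNA exosome, differed by 0.30 (SE 0.08), and Rabggtb, the beta subunit of Rab geranylgeranyl transferase, by 0.20 (SE 0.05). Cc2d2a, of the ciliary transition zone, differed by 0.34 (SE 0.08), and Ctps2, which makes CTP, by 0.35 (SE 0.09). Zfp637, a zinc finger protein, stood at 0.20 (SE 0.05). Sycp2, a meiotic chromosome axis protein at low level here, was at 2.80, 2.78 and 3.28 in mutants and 0.839, 1.97, 1.05, 1.88 and 1.85 in wild types, a log2 difference of 0.70 (SE 0.18). For these 7 genes the authors' deposited table gave p-values from 0.194 to 0.812. It had Cc2d2a in the other direction, with the authors' deposited table at 5.65 FPKM in wild types and 5.56 in mutants. Abundance times length gave smaller differences at all 7, namely 0.0768 for Cc2d2a, 0.00543 for Ctps2, 0.0957 for Exosc7, 0.11 for Rabggtb, 0.19 for Sycp2, 0.14 for Zfp637 and 0.15 for Upf3b.

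Rbfox3 was the 1 lower gene of the 12 with a p-value under 0.05 in the authors' deposited table. Rbfox3, the splicing factor known as the NeuN antigen of mature neurons (chromosome 11, 118489762 to 118911597), was at 91.2, 82.0 and 85.6 in the mutants. Its treated wild types stood at 105.9, 99.2, 108.3, 99.3 and 95.0, all higher. The log2 difference was -0.23 (SE 0.05, limma's unadjusted p 0.000829 and adjusted p 0.664), and abundance times length gave -0.19. The authors' deposited table gave 96.2 FPKM in wild types and 84.9 in mutants (p-value 0.0414, q-value 0.808). Its counterpart for vehicle gave 89.6 FPKM in wild types and 86.6 in mutants. With the highest transcript of each gene in place of the sum, the difference under TAK-418 was 0.10. Under vehicle the mutants were at 90.4, 88.4 and 86.1 and the wild types at 100.5, 92.9 and 103.2, again apart, with a log2 difference of -0.16 (SE 0.06, limma's unadjusted p 0.0184).

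Nrxn2, a presynaptic neurexin (chromosome 19, 6418731 to 6544169), was at 86.3, 80.8 and 74.4 in mutants and 96.9, 91.5, 92.0, 90.8 and 89.1 in wild types. Its log2 difference was -0.19 (SE 0.05), and the authors' deposited table gave 76.2 and 67.5 FPKM for wild types and mutants. Sez6l, a transmembrane protein of the seizure-related family, was at 69.2, 74.1 and 69.6 against 86.9, 83.9, 88.0, 78.7 and 79.3, a log2 difference of -0.23 (SE 0.05). Its vehicle difference had the opposite sign, 0.16 (SE 0.05, limma's unadjusted p 0.00929), and the vehicle wild types were the lowest group, at 67.6, 72.4 and 66.2. The test of the difference between treatments gave a limma adjusted p of 0.435 for Sez6l.

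Ttyh3, a chloride channel family member, differed by -0.20 (SE 0.05), and Adgrg1, an adhesion G protein-coupled receptor of neural progenitors and glia, by -0.16 (SE 0.03). The phospholipase C gene Plch2 stood at 35.3, 37.1 and 35.0 in mutants and 44.6, 48.4, 44.0, 47.0 and 44.7 in wild types, a log2 difference of -0.34 (SE 0.06). Otud7a, a deubiquitinase gene, differed by -0.24 (SE 0.05), and Meaf6, a subunit of MYST acetyltransferase complexes, by -0.33 (SE 0.08). Abundance times length turned the sign for Otud7a (0.19) and Meaf6 (0.25), and gave -0.12 for Plch2. Parp8, of the poly(ADP-ribose) polymerase family, was at 12.5, 13.3 and 13.9 against 14.2, 20.1, 19.8, 21.9 and 20.7. Its mean transcript length was 2819 to 2859 bases in 4 wild types and 6777 in wild-type replicate 1, whose value was also the nearest to the mutants, at 6099 to 7927 bases. All 6 vehicle libraries were like the mutants, at 12.4 to 14.4 with lengths of 5958 to 7320 bases.

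Ncam1, the neural cell adhesion molecule (chromosome 9, 49502136 to 49798925), was at 31.8, 21.4 and 51.2 in the mutants and 65.9, 64.0, 71.3, 62.1 and 62.0 in the wild types. Its log2 difference of -0.97 (SE 0.20) kept its size when length was used (-1.06), but the authors' deposited table gave 55.7 FPKM in wild types and 50.9 in mutants. With the highest transcript of each gene in place of the sum, the difference was -0.29 for Ncam1, -0.02 for Adgrg1 and -0.05 for Nrxn2. Mutant replicates 1 and 2 each had 1 assembled Ncam1 transcript, and the other 6 treated libraries had 4 to 6. Clmp, an adhesion molecule of the immunoglobulin superfamily, was at 5.82, 10.127 and 4.39 against 12.2, 12.1, 11.1, 10.143 and 10.6, and the authors' deposited table gave 8.85 and 8.74 FPKM in wild types and mutants.

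Transcript length also separated the groups at some of these genes. Mutant transcripts were shorter, with no overlap, at 5 of the 12 higher genes and at 2.14% of eligible genes. Among the 287 eligible genes wholly above, from which the 12 came, the share was 12.2%. Mutant transcripts were longer at 3 of the 12 lower genes, at 4.34% of the 346 eligible genes wholly below and at 1.34% of eligible genes. Over the 24, abundance times length kept the sign of the difference at 17, and the authors' deposited table kept it at 22 with 3 at a p-value under 0.05. These second measures come from the same libraries. Across 10995 genes with a locus of their own, the limma difference and the log2 fold change in the authors' deposited table had a Pearson r of 0.264 and a Spearman rho of 0.447 across genes, which are not replicates and share the same reads.

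The vehicle mice gave the 24 genes no common direction. Of the 12 higher genes 9 were also higher in vehicle mutants and of the 12 lower genes 4 were lower, and 1 of each, Penk and Rbfox3, had an unadjusted vehicle p under 0.05 with the same sign. Sycp2 and Sez6l had one with the opposite sign. Over all genes at an unadjusted p under 0.05 with TAK-418, 52.2% had the same sign under vehicle, against 51.8% of all genes tested. The difference between treatments passed an adjusted p of 0.05 for none of the 24 with limma, and 17 had an unadjusted p under 0.05, but the genes had been chosen on the treated contrast.

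**Figure D3:**
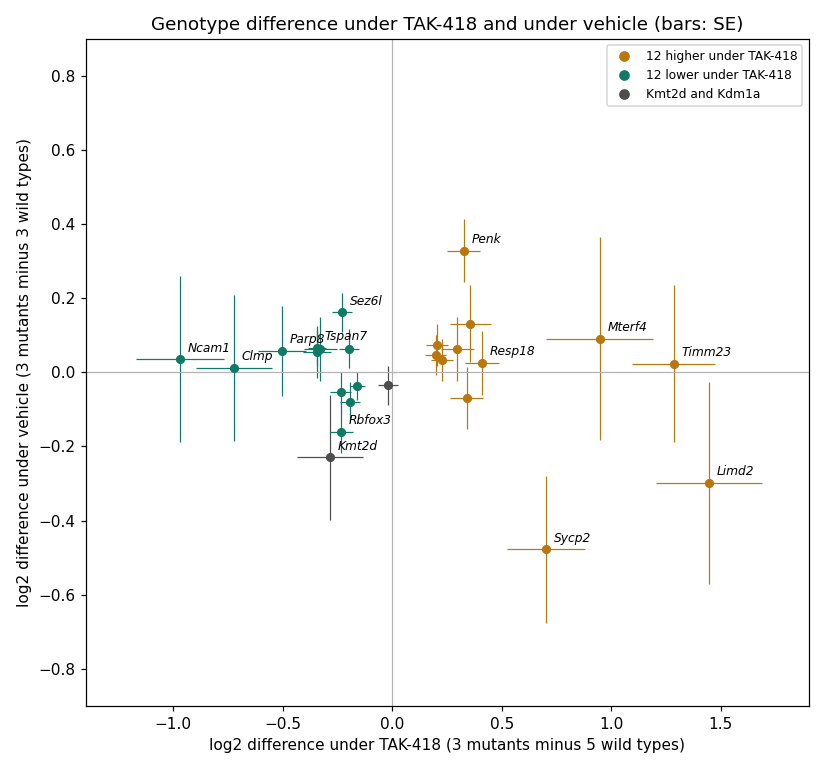
The horizontal axis is the log2 difference between mutants and wild types under TAK-418, the vertical axis the same under vehicle, and bars are standard errors. Penk lies at 0.33 on both axes and Rbfox3 below 0 on both, while Timm23 and Limd2, above 1 on the horizontal axis, lie at 0.02 and -0.30 on the vertical.

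The treated mutants and the treated wild types were each also read against all other libraries. At 6 of the 12 higher genes (Timm23, Limd2, Resp18, Upf3b, Rabggtb and Sycp2) the 3 treated mutants lay above all 11 other libraries, and at none did the 5 treated wild types lie below all 9 others. At 7 of the 12 lower genes (Plch2, Otud7a, Sez6l, Adgrg1, Meaf6, Ttyh3 and Nrxn2) it was the treated wild types that lay above all 9 other libraries, the vehicle wild types included. The treated mutants lay below all 11 others at 3, namely Tspan7, Ncam1 and Clmp. At Clmp the margin was narrow, with mutant replicate 2 at 10.127 and wild-type replicate 4 at 10.143. Over all eligible genes that did not overlap, the treated wild types stood above every other library at 56 of 346 lower genes, and the treated mutants below every other library at 20. Of 287 higher genes, the treated mutants stood above every other library at 30 and the treated wild types below at 8. By chance a group of 3 lies beyond all 11 others more easily than a group of 5 beyond all 9 others. The counts for mutants and wild types are therefore not on a like footing, and no chance rate was computed.

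Gene lists for the pathway and for hippocampal cell types gave few members past the unadjusted threshold. Of 305 members tested over 25 lists, 4 (1.31%) were higher and 12 (3.93%) lower at an unadjusted p under 0.05, beside 2.41% and 2.52% of all genes. No member other than Tspan7 and Pcdhb13 passed limma's adjusted p. Without mutant replicate 1 the count of 16 became 25.

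Among 18 COMPASS methyltransferases and subunits, 1 was lower and 0 were higher, and the median log2 difference was -0.06 beside 0.003 for all genes. The lower one was Setd1b, a catalytic subunit for trimethylation of lysine 4, at 5.86, 5.95 and 5.84 in mutants and 6.81, 7.01, 8.43, 6.86 and 6.63 in wild types (log2 difference -0.24, SE 0.10, limma's unadjusted p 0.0322). None of 16 tested genes of the LSD1 and CoREST complex stood past the threshold, with a median of -0.01, nor did any of 7 genes of the KDM5 family, other demethylases of this lysine, p300 and CBP, with a median of -0.09. The summed level of these 7 ran from 96.0 to 99.97 in mutants and from 100.4 to 109.0 in wild types, and was not tested.

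Of 15 markers of newborn granule neurons, 1 had a higher mean in mutants, the median was -0.08, and 1 was past the unadjusted threshold. That gene was Dpysl3, a cytoskeletal protein of growing axons, at 19.5, 19.9 and 18.0 in mutants and 27.0, 26.1, 20.6, 25.1 and 25.9 in wild types (log2 difference -0.36, SE 0.09, limma's unadjusted p 0.00205). Its transcripts averaged 5032 to 5065 bases in 4 treated wild types and 2172 to 2252 in the 10 other libraries, among them wild-type replicate 3, the lowest of its group, and abundance times length gave -1.31. Markers of neural stem and dividing cells had a median of 0.07 and none past it. Mature dentate granule markers had a median of -0.06, and Tdo2, which degrades tryptophan, was lower (-0.23, SE 0.09). Tdo2 was also lower under vehicle, by -0.26 (SE 0.10).

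In the CA field list, Mpped1 (-0.26, SE 0.08) and Fibcd1 (-0.13, SE 0.06) were lower and Amigo2 (0.44, SE 0.14) and Map3k15 (1.01, SE 0.34) higher at an unadjusted p under 0.05, among 15 members with a median of -0.01. Abundance times length gave 0.33 for Map3k15, whose transcripts averaged 4185 and 4315 bases in the 2 lowest wild types and 387 to 877 in the other 6 treated libraries, and -0.11 for Mpped1. Amigo2 marks CA2 and CA3 neurons and Fibcd1 marks CA1. Of 18 interneuron genes, 14 had a higher mean, with a median of 0.02, and the summed level was 1123, 1220 and 1214 in mutants and 925, 1064, 1105, 1122 and 1111 in wild types. That sum was carried by Cck, a neuropeptide gene that pyramidal cells also express, at 430, 453 and 403 against 131, 439, 283, 412 and 313. Without Cck, left out after the values were seen, the sums were 693, 767 and 811 against 794, 625, 822, 710 and 798 and overlapped. Htr3a, the serotonin-gated channel of one interneuron class, was the only member past the threshold (0.15, SE 0.06). None of 15 immediate early genes was past it.

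The oligodendrocyte and precursor lists had 1 member each past the threshold. Mobp, a myelin protein, was at 208, 436 and 469 in mutants and 504, 525, 485, 491 and 545 in wild types (log2 difference -0.55, SE 0.22), with mutant replicate 1 far below the rest. In that library its transcripts averaged 7559 bases, against 2382 to 2724 in the 7 others, and abundance times length gave -0.02. Without that library the difference was -0.17. The oligodendrocyte list had a median of -0.10, and its summed level ran from 4119 to 5145 in mutants and from 4054 to 5339 in wild types. The precursor list had a median of -0.14, and 2 of its 12 members had a higher mean in mutants. Neu4, a sialidase of the precursor list, was at -0.28 (SE 0.10), and at -0.05 by abundance times length. Among vascular markers, Cdh5 of endothelium (-0.34, SE 0.12) and Rgs5 of pericytes (-0.13, SE 0.05) were past the threshold, while 7 of 13 members had a higher mean.

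Postsynaptic genes showed 2 lower members of 21. Dlg4, the scaffold PSD-95, was at 292.2, 298.9 and 287.7 in mutants and 307.4, 321.0, 314.8, 315.7 and 315.0 in wild types (log2 difference -0.10, SE 0.04, limma's unadjusted p 0.0127). Shank3, another scaffold, differed by -0.18 (SE 0.07), and the list's median was -0.03. Both scaffold genes had no difference of that sign under vehicle, where they stood at 0.05 (SE 0.04) and 0.02 (SE 0.08); the difference between treatments had an adjusted p of 0.977 for each.

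**Figure D4:**
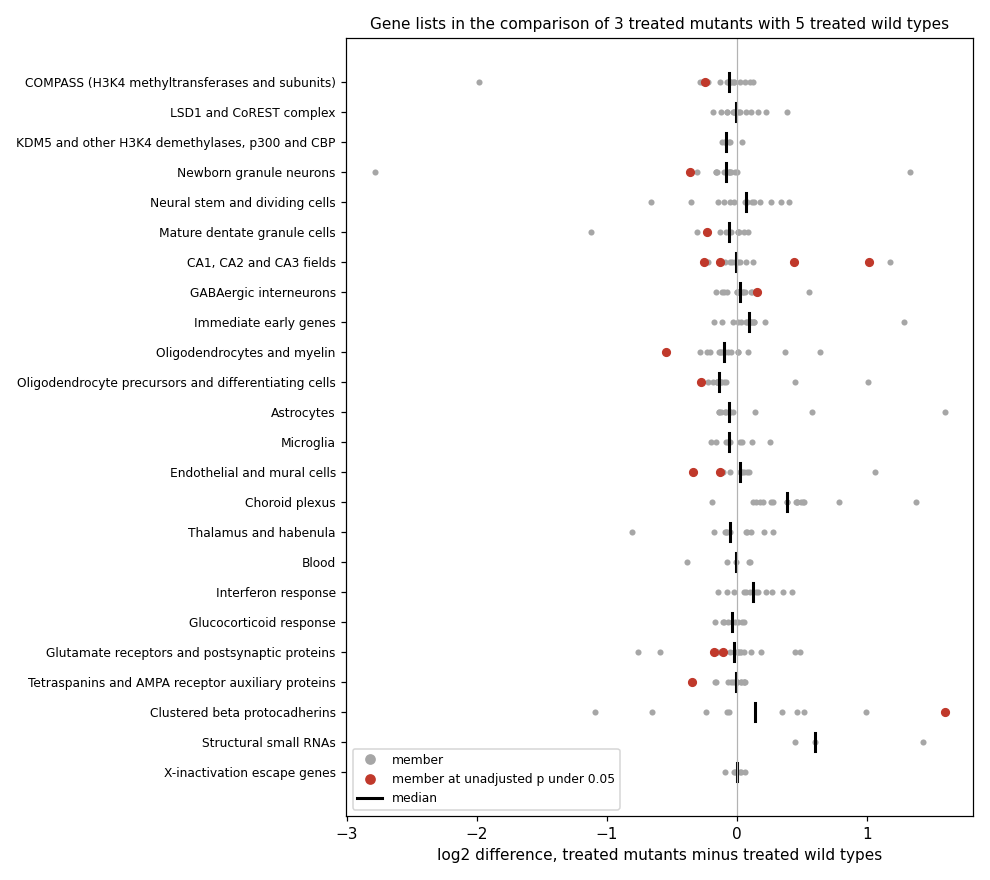
Each row is a gene list, each grey point a member tested, each red point a member at an unadjusted p under 0.05 and each black bar the median; the horizontal axis is the log2 difference of the treated mutants from the treated wild types. Medians lie within 0.14 of 0 except for the choroid plexus list at 0.39, the beta protocadherins at 0.14 and the structural small RNAs at 0.60.

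Choroid plexus genes had a higher mean in mutants at 16 of 17 members, with 0 past the unadjusted threshold and 3 above all wild types. Over all 16568 genes, 8468 had a higher mean and 364 (2.2%) lay above. The list's summed level was 627 in mutant replicate 1, 28.6 and 37.2 in the other mutants, and 21.04 to 49.5 in the wild types. Ttr, the transthyretin made in quantity by that tissue, stood at 592, 9.87 and 20.2 in the treated mutants and 34.0, 6.51, 32.3, 16.2 and 19.6 in the treated wild types, and under vehicle it reached 6396 in 1 wild type and 4927 in 1 mutant. Without mutant replicate 1 the Ttr difference turned from 1.38 to -0.39.

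No member of the lists for astrocytes, microglia, thalamus and habenula, blood, interferon response, glucocorticoid response or X-inactivation escape was past the unadjusted threshold. Their medians were -0.06, -0.06, -0.06, -0.005, 0.12, -0.04 and 0.004 in that order. The thalamus list, a check on the dissection, summed to 55.3 to 60.8 in mutants and 57.8 to 60.9 in wild types. Beyond Tspan7, none of 15 tested tetraspanins and AMPA receptor auxiliary proteins was past it, and beyond Pcdhb13, none of 10 tested beta protocadherins.

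The authors' deposited table called 71 of 32634 tested loci at a q-value under 0.05, with 53 (0.162%) higher and 18 (0.0552%) lower in treated mutants. The table gives group values only. The assembled transcripts inside each called locus show how they were spread over the libraries. Their sums do not always follow the group FPKM, so they cannot settle which libraries carry a call. Of the 53 higher loci 48 held such transcripts. At 18 of these mutant replicate 2 exceeded every other treated library at least 5-fold, and at 3 all mutants lay above all wild types. Of 16568 genes tested, 364 (2.2%) had all mutants above all wild types. The loci had been called in the same libraries, so the 3 are not separate support.

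The 18 loci led by mutant replicate 2 included several structural RNA genes. Rn7sk, the 7SK RNA that holds back transcription elongation, had 20.8 FPKM in wild types and 506 in mutants in the authors' deposited table. By library its transcripts summed to 0.46, 15.3 and 0.77 in mutants and to 0, 0.42, 0.23, 0.57 and 0.53 in wild types. Rnu1a1, a U1 spliceosomal RNA, had 53.4 and 1766 FPKM in the authors' deposited table, and was at 0.28, 10.1 and 0.90 in mutants and 0.38 to 1.30 in wild types. Rnu2-10, a U2 spliceosomal RNA, had 26.03 and 1160 FPKM in the authors' deposited table, with 9.43 in mutant replicate 2 and 0 in the other mutants, and 0 to 1.46 in wild types. Lars2, the mitochondrial leucyl-tRNA synthetase gene, whose locus had 218 and 1599 FPKM in the authors' deposited table, was at 154, 3169 and 170 in mutants and 122 to 207 in wild types. In 15 of these 18 loci the highest of the 11 libraries outside the treated mutants was vehicle mutant replicate 1, the library in which 40.8% of the abundance lay in transcripts of no gene. At 14 of the 18 the authors' deposited table for vehicle also called the locus. The part that these libraries' unassigned abundance plays in the calls was not tested.

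**Figure D5:**
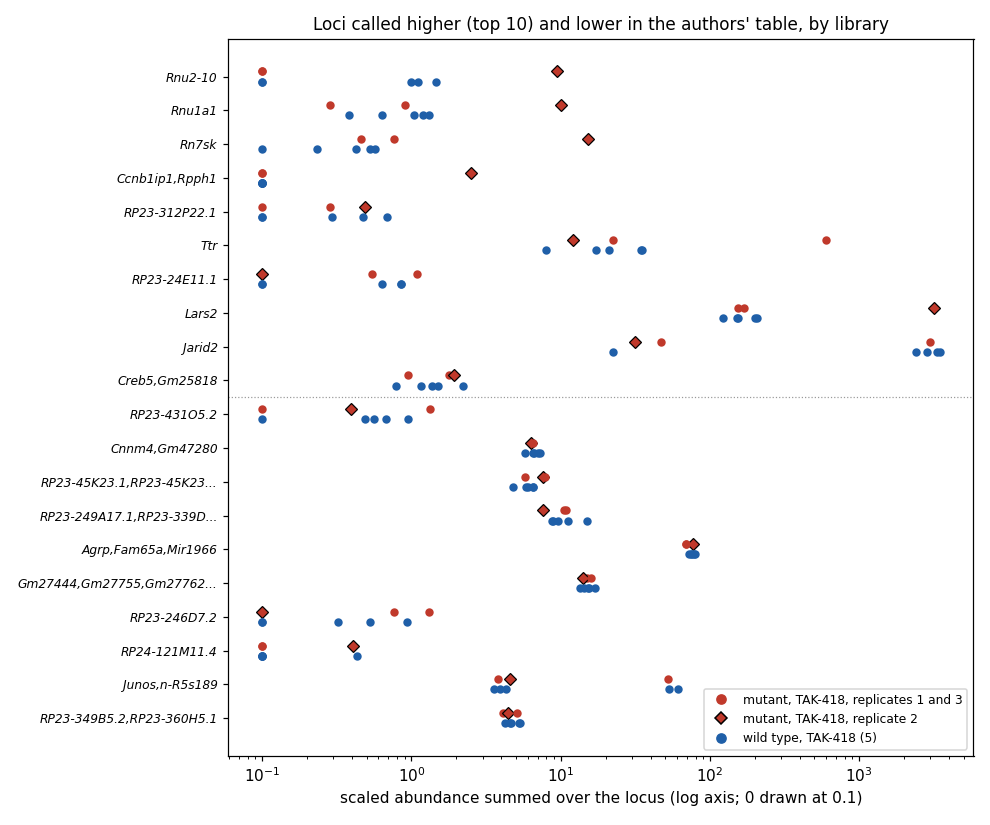
Rows are the 10 higher and 10 lower named loci with the largest finite fold in the authors' deposited table, and points are the 8 treated libraries by the summed scaled abundance of transcripts in the locus, on a log axis with 0 drawn at 0.1. Mutant replicate 2 (outlined diamond) stands alone at Rnu2-10, Rnu1a1, Rn7sk, the Rpph1 locus and Lars2, mutant replicate 1 at Ttr, and at the lower loci the groups overlap.

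Rny1 and Gm25360, named higher loci listed at 0 in wild types, have no finite fold; the authors' deposited table gave 1234 and 6.38 FPKM in mutants. No transcript was assembled at Rny1 in the 8 libraries, and Gm25360 had one in mutant replicate 2 alone, at 0.451.

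The 3 loci where all mutants were higher were Gpr101, Dcn and Gm10800, named here after their values were seen. Gpr101, an orphan receptor gene on chromosome X, had 2.72 and 3.67 FPKM in the authors' deposited table for wild types and mutants. By library it was at 5.21, 5.49 and 5.61 in mutants and 4.13, 3.55, 4.01, 4.19 and 4.84 in wild types. Dcn, the proteoglycan decorin of meninges and vessels, had 22.0 and 28.8 FPKM in the authors' deposited table, and was at 36.9, 44.5 and 34.7 in mutants and 32.9, 23.98, 30.9, 33.8 and 29.6 in wild types. Vehicle libraries ran from 2.75 to 5.65 at Gpr101 and from 29.9 to 37.7 at Dcn.

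None of the 18 loci called lower had all mutants below all wild types, beside 393 of 16568 genes tested (2.37%). The locus of Agrp, Fam65a and Mir1966 had 146 FPKM in wild types and 28.6 in mutants in the authors' deposited table, but its transcripts summed to 69.1, 76.7 and 69.2 in mutants and 79.8, 74.8, 78.2, 75.5 and 72.2 in wild types. The St7 locus had 73.8 and 13.9 FPKM in the authors' deposited table, against 14.95, 14.2 and 16.0 in mutants and 13.4 to 16.9 in wild types. The Jarid2 locus, called higher at 204 and 1427 FPKM in the authors' deposited table, summed to 47.2, 31.3 and 2977 in mutants and to 22.5, 3319, 2417, 2863 and 3457 in wild types, with 1 mutant and 4 wild types high. The locus of Cnnm4 had 12.95 and 4.30 FPKM in the authors' deposited table and between 5.79 and 7.30 in every treated library.

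Genes at an unadjusted p under 0.05 were spread over the chromosomes. Their share ran from 3.67% on chromosome 13 to 6.23% on chromosome 17 among the autosomes, and was 5.22% on X and 5.04% on chromosome 15, which carries Kmt2d. Within 5 megabases of Kmt2d 8 of 152 genes (5.26%) had such a p, and beyond 20 megabases on the chromosome 14 of 315 (4.44%). The nearest was Tuba1a, an alpha tubulin of neurons, 0.118 megabases away, with a log2 difference of 0.34 (SE 0.10) and a vehicle difference of -0.10.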

How the data were processed

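Libraries of total hippocampal RNA were aligned with TopHat2 2.1.0 after FastQC to mm10, per the submitters' processing notes, and assembled with CLASS 2.1.7, per the file headers; other aligner and quantification settings are not given in the sources used here. The labels name a pair of NEBNext library kits without saying which library used which. The deposited transcript value, Abundance, is a score that behaves like a length-normalised density. The authors' deposited tables give group FPKM, log2 fold changes, p-values and q-values per locus. They list no depth or replicate values, and the program that made them is not given in the sources used here.

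Transcripts were assigned to GENCODE M21 genes by a shared intron or, for a single exon, by 50% overlap with its exons. Gene sums were scaled by median ratios over 13273 genes with a value in all 14 libraries. limma 3.58.1 (R 4.3.3, trend) was fitted to log2(scaled abundance + 0.9) for 16568 genes with a value in at least 3 libraries, all 4 groups sharing 1 spread, with Benjamini-Hochberg adjustment over all genes. A fold on this scale understates changes of low genes. The test was checked on simulated data, where 12 of the calls were wrong. Single values used exact permutation tests in scipy 1.17.1.

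Named genes were Kmt2d, Kdm1a, every gene past an adjusted p of 0.05, the 12 higher and 12 lower eligible genes with the smallest p, the first 4 of each list by p (described where under 0.05), and the 10 higher and 10 lower symbol-bearing loci of the deposited table by finite fold. Members and lists were chosen with earlier results of these data known. Structural small RNAs had 3 of 13 members tested and mitochondrial mRNAs 0 of 13. Alternatives covered the constant, filter, scaling, gene value, library weights, sex and each library left out. Replicate numbers follow sample order and pair nothing.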

Additional observations from a re-analysis of the deposited data

Results flagged for a closer look

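Among the 5 treated wild types, 51 measures were screened for a sample whose gap to the nearest of the others took more than 0.71 of the group's range, and 12 had one, 9 of them in wild-type replicate 1. Chance gives about 1 in 20 groups such a sample where measures are independent and normally spread. The measures screened here were not independent, since several describe the same assembly, so that rate is only a rough guide. Wild-type replicate 1 stood apart in 6 measures of the assembly. It had 48428 assembled transcripts (nearest 35896), 42421 with several exons (nearest 32155), 22947 with an abundance of at least 1 (nearest 22205), 182081 introns (nearest 162437), 16759 genes with a value (nearest 15537) and a relative depth of 167.6 M (nearest 56.1). In the same library Timm23 was at 44.5 (nearest 22.9) and Mterf4 at 7.22 (nearest 4.82), both toward the mutants, as was Parp8 at 14.2 (nearest 19.8). Wild-type replicate 2 had 7.996% of its abundance in transcripts of no gene (nearest 5.26%). Wild-type replicate 5 had Ttyh3 at 80.1 (nearest 76.8), and wild-type replicate 3 had Setd1b at 8.43 (nearest 7.01), both away from the mutants.

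The genotype difference in Pcdhb13 differed between the treatments by 1.60 on the log2(value + 0.9) scale, with limma's adjusted p of 0.0019 for that difference. The gene was listed at 0 in all 6 vehicle libraries, so the size depends on the added constant. Groups listed at 0 have no spread, so this p-value reflects only whether a transcript was assembled.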

How the results depend on the processing

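The number of genes past limma's adjusted p of 0.05, 2 as reported, was 4 with a constant of 0.09, 5 with no filter on low values, 1 with a stricter filter, 1 without scaling between libraries, 1 with upper quartile scaling, 7 with the highest transcript of each gene, 5 with library weights and 0 with transcripts of several exons only, where 788 genes had an unadjusted p under 0.05. With 1 treated library left out it ran from 1 to 7. Neither Tspan7 nor Pcdhb13 was called without any 1 mutant: without mutant replicate 2 the calls were 7, Clmp among them (-1.02), without mutant replicate 3 only Ncam1 (-1.29), and without wild-type replicate 1 the 5 calls included Timm23 (1.48) and Parp8 (-0.61). Timm23 was also called with library weights (1.36). Genes at an unadjusted p under 0.05, 816 as reported, numbered 614 to 1091 with 1 library left out, and all 24 named genes stayed under it each time. The 24 had been chosen in the same libraries for a small p and no overlap, which made that outcome likely.

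Abundance times length reversed Tspan7 (0.0103), Timm23 (-0.66), Limd2 (-0.20), Mterf4 (-1.12), Otud7a (0.19), Parp8 (0.50) and Meaf6 (0.25); transcript length, which differed between the groups in several of these, enters that measure by construction. Using the highest transcript reversed Cc2d2a (-0.13), Sez6l (0.0362) and Rbfox3 (0.10), and leaving out mutant replicate 1 reversed Ttr (-0.39, in a range of -0.39 to 2.50 over the libraries left out); the cause was not tested. Of 835 values of 42 named genes under the alternatives, 808 kept direction and side of the threshold.

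Loci called in the authors' deposited table fell from 71 to 0 at a q-value of 0.01, its lowest q-value being above that; 54 had at least 1 FPKM in both groups, and 53 remained without those led by mutant replicate 2, an alternative chosen after seeing the data. The mean difference in assembled transcripts, 2152, became -825 with transcripts of several exons and -38.5 with an abundance of at least 1, and ran from 1213 to 4850 with 1 library left out. Members of the lists at an unadjusted p under 0.05, 16 as reported, numbered 25, 16 and 16 without mutant replicate 1, mutant replicate 2 and wild-type replicate 1, alternatives also chosen after seeing the data. No paired analysis was possible because replicate numbers only follow the order of the samples. No read counts were used, and no detection limit was computed.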

Other observations

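Of the 816 genes at an unadjusted p under 0.05 with TAK-418, 44 (5.39%) had such a p with the same sign in the vehicle mice, beside 501 of all 16568 genes (3.02%) whose vehicle difference had the same sign and such a p. Both p-values came from 1 limma fit that shares 1 spread per gene. A gene with a small spread can therefore pass in both contrasts, with either sign. The number of genes with such a p and the opposite sign is not given here, so the 2 shares cannot show whether the difference recurred. Among the 24 named genes, 2 had the same sign and 2 the opposite. Penk and Rbfox3 apart, the 44 included Map2, a microtubule protein of dendrites, at -0.19 (SE 0.05) with TAK-418 and -0.19 (SE 0.06) under vehicle. Cntn2, an axonal adhesion molecule, was at -0.21 (SE 0.08) and -0.29 (SE 0.09). Cacng5, an auxiliary protein of AMPA receptors, was at 0.43 (SE 0.13) and 0.41 (SE 0.15), and Rspo3, a secreted enhancer of Wnt signalling, at 0.22 (SE 0.07) and 0.18 (SE 0.08). None passed limma's adjusted p of 0.05 with TAK-418, and they were chosen after their values were seen.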
